A study of Mus musculus with 18 samples.

Results

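The comparison set mouse sciatic nerve collected during recovery (PID42) against sciatic nerve with no disease, with 3 libraries in each group, 6 of the 18 libraries of the study. The nerves came from C57BL/6 mice, and RNA from whole tissue was sequenced in bulk. The 3 nerve libraries at peak disease (PID21) are given beside them and entered the same fit; the other 9 libraries are dorsal root ganglia and are not described here. How disease was induced, which alleles the animals carried and the meaning of PID were not given in the sources used here. Nothing in the labels states that the 3 libraries of a group are 3 animals, so each p-value reflects the spread among these samples alone, which may be technical. The question addressed was which transcripts of the nerve still differed from no disease after the peak had passed.

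Sciatic nerve is made of axons whose cell bodies lie elsewhere, of Schwann cells that wrap them in myelin, and of fibroblasts, perineurial cells, vessels and resident macrophages. When Schwann cells or axons are damaged, Schwann cells lower their myelin programme and take on a repair state, and macrophages enter to clear myelin debris, loading their lysosomes with lipid. As a nerve heals, Schwann cells myelinate again and macrophage numbers decline. The NF-kB pathway, in which inhibitors of the IkB family hold Rel proteins in the cytoplasm until a signal releases them, and the interferon pathway, which acts in part through Irf1, are among the routes by which cells of such tissue switch on inflammatory genes.

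Levels are CPM, read counts scaled to a common library size by the trimmed mean of M-values (TMM), given per library in the order of replicates 1, 2 and 3. A change is a log2 fold change, written with ± its SE and taken from the quasi-likelihood test of edgeR, with p-values given a Benjamini-Hochberg adjustment across all genes that were tested, and a gene is called where the adjusted p is under 0.05. The tissue label was checked against myelin genes. Prx, whose product periaxin anchors the myelin sheath, was at 1455, 2764 and 2622 CPM with no disease and 2604, 2587 and 2542 CPM at recovery, so it was abundant in each library and lowest in no disease replicate 1. Total counts were 13686465 to 17066370 with no disease and 17332159 to 20766191 at recovery. In bulk tissue, fewer cells of a type and less RNA per cell cannot be told apart.

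Several libraries stood apart from their group. No disease replicate 2 had the lowest total count and the largest share of counts in the 5 genes that collect ribosomal RNA reads, 23.9%, against 3.73% and 10.1% in no disease replicates 1 and 3 and 0.677% to 5.38% at recovery. It also had the highest level of every muscle gene named below. No disease replicate 1 was lowest for Prx and highest for the immunoglobulin gene Ighm (114, 19 and 15.7 CPM with no disease), and no disease replicate 3 was highest for the cytokine Il6 (0.285, 5.04 and 14.9 CPM). Recovery replicate 3 was highest for interferon genes. Changes from no disease to recovery were recomputed without each of these 6 libraries in turn, for gene counts, named genes and list medians. Comparisons with peak, summed list levels and promoter shares were not recomputed.

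Of 16049 genes tested, 101 were higher at recovery (0.629%) and 63 were lower (0.393%), 1.02% in all. The median log2 fold change over all genes tested was 0.00, with quartiles of -0.15 and 0.14. By an unadjusted p under 0.05, 6.92% of genes were higher and 6.35% lower, and the shares were 1.83% and 2.01% at q under 0.05 in the authors' deposited table. Each recovery library was above each no disease library in 11.6% of genes and below in 10.1%. At peak, for scale, 27.1% of the same genes were called against no disease. Of the genes called at recovery, 63 rose by more than 1 and 35 fell by more than 1 on the log2 scale, and 13 of the falls were genes of skeletal muscle. They are described below by biological role, first the rises in genes of phagocytes, NF-kB signalling, injury and mitosis, then the falls in genes of matrix, sterol synthesis and muscle.

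**Figure D1:**
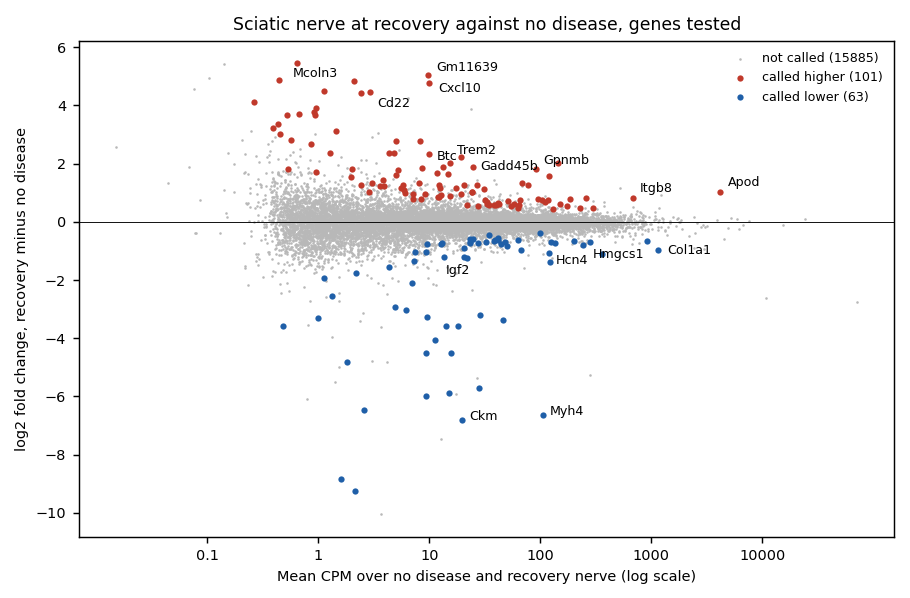
Each point is 1 of the genes tested, placed by its mean CPM over the 6 libraries of no disease and recovery (x axis, log scale) and its log2 fold change from no disease to recovery (y axis). The 101 genes called higher are red, the 63 called lower are blue, and the genes that fell furthest, such as Ckm and Myh4, are of skeletal muscle.

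The counts depended on all 6 libraries being present. Leaving out no disease replicate 1, 2 or 3 gave 79 higher and 65 lower, 13 and 4, and 19 and 9. Leaving out recovery replicate 1, 2 or 3 gave 19 and 7, 15 and 1, and 15 and 0. All 164 genes kept their direction in each of these fits, but each leaves 1 group with 2 libraries and so less power to call. The number of these 6 fits in which a gene stayed called is therefore given with the genes named below. Calls that ended with limma-voom, another test, or in a fit to all 18 libraries, ganglia included, are given there too.

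Several markers of macrophages that clear lipid were above no disease. Of 33 genes of lipid-laden macrophages tested, 6 rose and none fell, where 0.629% of all genes rose, with a median log2 fold change of 0.42 (0.33 to 0.47 with 1 library left out). This list, like the others below, was chosen with earlier results of these data known. Its count is therefore a description and not a test. Gpnmb (ENSMUSG00000029816, chromosome 6, 49036546 to 49070929, plus strand), a glycoprotein of phagocytes that have taken up lipid, was at 43.6, 41.1 and 36.1 CPM with no disease, 146, 138 and 139 CPM at recovery and 495, 809.9 and 437 CPM at peak. Its recovery libraries lay close together, above each no disease library and below each peak library. The change from no disease was 1.81 ± 0.21, adjusted p = 0.00622 at recovery and 3.85 ± 0.22 at peak, and it was called in 5 of the 6 fits with 1 library left out, with adjusted p = 0.0579 in the other.

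Trem2 (ENSMUSG00000023992, chromosome 17, 48346401 to 48354147, plus strand), the lipid-sensing receptor of tissue macrophages, was at 7.18, 6.05 and 4.96 CPM with no disease and 21.3, 22.5 and 29.9 CPM at recovery, a rise of 2.01 ± 0.26, adjusted p = 0.0137, and at 71.1, 121 and 67.2 CPM at peak. Lgals3 (ENSMUSG00000050335, chromosome 14, 47367751 to 47386160, plus strand), which encodes the lectin galectin-3, was at 42.5, 45.4 and 48.4, then 100.3, 119.5 and 109 CPM at recovery (1.27 ± 0.12, adjusted p = 0.00353) and 188, 252 and 209.5 CPM at peak. In both, recovery libraries stood between the other stages with no overlap. Cd22 (ENSMUSG00000030577, chromosome 7, 30865402 to 30880342, minus strand), a sialic acid receptor best known from B cells, was nearly without counts in no disease nerve at 0.228, 0 and 0.451 CPM, and was at 4.52, 5.36 and 6.82 CPM at recovery and 18.6, 31.7 and 18.3 CPM at peak. Mcoln3, a cation channel of endosomes and lysosomes, had a like pattern, at 0.114, 0 and 0.258 CPM with no disease, 3.16, 4.16 and 4.83 CPM at recovery and 10.02, 20.02 and 11.4 CPM at peak. Their rises at recovery, 4.46 ± 0.50 and 4.84 ± 0.55, are fitted against libraries that include a count of 0 and depend on the prior count. Lgals3, Cd22 and Mcoln3 were called in all 6 fits with 1 library left out, and Trem2 in 2, with adjusted p up to 0.0687. With limma-voom Cd22 (adjusted p = 0.064) and Mcoln3 (adjusted p = 0.0558) were not called.

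Further called genes known from phagocytes, some in that list and some picked outside it because they rose, were as follows. Atp6v0d2, a proton pump subunit of osteoclasts and macrophages, was at 2.34, 1.65 and 2.13 CPM with no disease and 13.8, 14.3 and 15 CPM at recovery (2.79 ± 0.39, adjusted p = 0.0163). Mpeg1, a pore-forming protein of macrophages, was at 76.5, 47.1 and 47.6 CPM with no disease and 199, 209.6 and 283 CPM at recovery (2.01 ± 0.27, adjusted p = 0.0163). Ms4a7, a membrane protein of macrophages, was at 9.92, 5.13 and 4.77 CPM with no disease and 28.4, 25.8 and 40.6 CPM at recovery (2.23 ± 0.40, adjusted p = 0.0347). In each of the 3, no disease replicate 1 was the highest of its group and still below each recovery library. Smaller sets of values were those of Havcr2, which encodes the receptor TIM-3 (2.38 ± 0.40), the myeloid receptor Cd300c2 (1.86 ± 0.28) and the immune receptor Slamf7 (1.69 ± 0.28), all called. Atp6v0d2, Ms4a7, Havcr2, Cd300c2 and Slamf7 were each called in 1 of the 6 fits with 1 library left out and Mpeg1 in 2, with the highest adjusted p between 0.0826 and 0.152. With limma-voom Mpeg1 alone of these 6 stayed called, and the others were at adjusted p = 0.0788 to 0.138.

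No gene of the general macrophage list was called, although its median of 0.46 (0.33 to 0.61 with 1 library left out) was near that of the lipid-laden list, and no test compared the lists. Of its 30 genes 21 were higher and 9 lower by sign, and none was called by edgeR, with 14 higher and 1 lower when an unadjusted p under 0.05 is used and 11 higher and 2 lower at q under 0.05 in the authors' deposited table. Cd68, a lysosomal glycoprotein of macrophages, was at 20.6, 14.8 and 16.1 CPM with no disease and 32.8, 31 and 39.3 CPM at recovery, with no overlap (1.00 ± 0.21, adjusted p = 0.0593). Csf1r, the receptor for the main macrophage growth factor, was at 254, 135 and 139.5 CPM with no disease and 194, 193 and 251 CPM at recovery, and these groups overlapped (0.27 ± 0.24, adjusted p = 0.697). Mrc1, the mannose receptor, was at 463, 319 and 319 CPM with no disease and 309.6, 281 and 304 CPM at recovery, lower in each recovery library and not called (-0.30 ± 0.17, adjusted p = 0.505). The summed level of the list was 1901 to 2615 CPM with no disease, 2593 to 3094 at recovery and 3834 to 7252 at peak, so the ranges of no disease and recovery met. Of 30 lysosome and autophagy genes, 16 were higher and 0 lower with an unadjusted p under 0.05, against 6.92% and 6.35% of all genes. The authors' q-value was under 0.05 for 4, all higher, against 1.83% of all genes. Only 2 of the 30 were called, both higher, where 0.629% of all genes rose. They were the protease Ctss (1.57 ± 0.28, adjusted p = 0.0348) and the carboxypeptidase Ctsa (0.44 ± 0.09, adjusted p = 0.0483). The list median was 0.25 (0.22 to 0.26 with 1 library left out). Ctss was called in 1 of those fits and Ctsa in none (highest adjusted p 0.151 and 0.206). Ctsa was not called with limma-voom either (adjusted p = 0.0601). The exons of Ctsa overlap those of Neurl2 and Pltp.

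**Figure D2:**
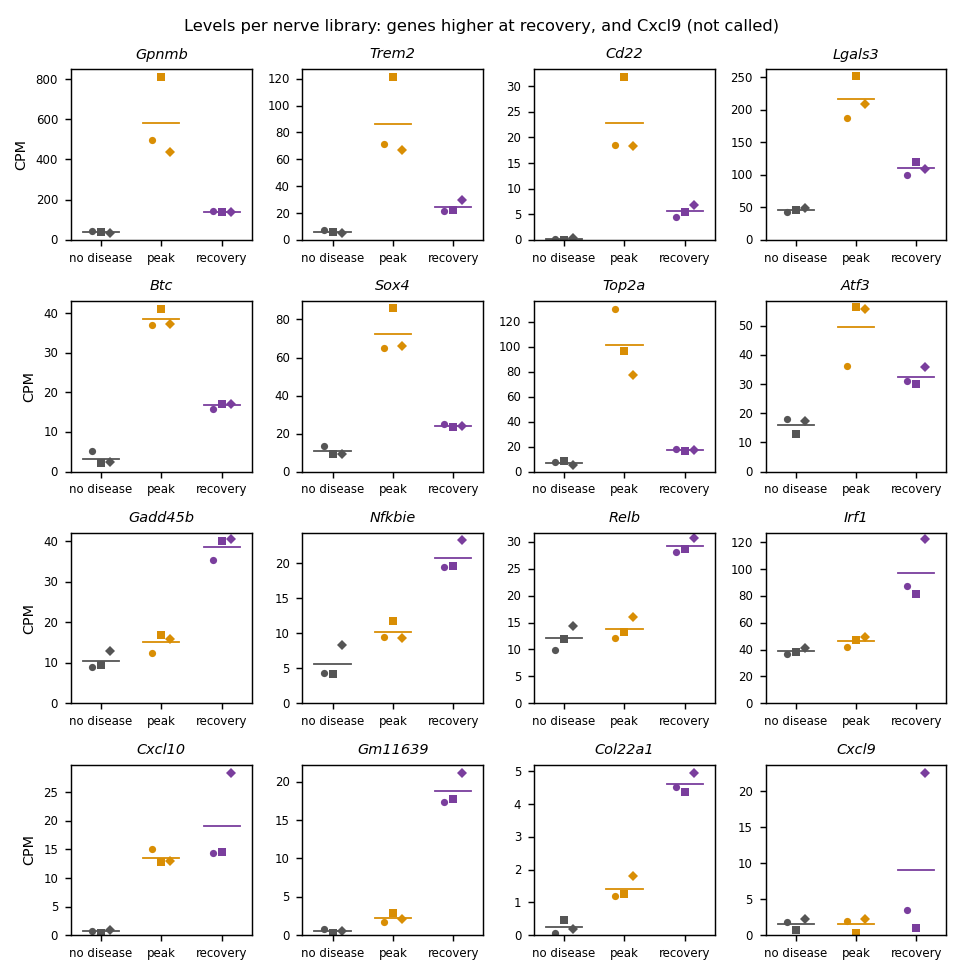
CPM on a linear axis from 0 for 16 genes, with 1 panel per gene and 3 libraries per stage (circle, square and diamond for replicates 1, 2 and 3; the line is the group mean). Gpnmb, Trem2, Cd22, Lgals3, Btc, Sox4, Top2a and Atf3 were highest at peak with recovery below it, while Gadd45b, Nfkbie, Relb, Irf1, Gm11639 and Col22a1 were highest at recovery, and Cxcl9 was high in 1 recovery library.

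Several NF-kB regulators were higher at recovery than with no disease, and Gadd45b, Nfkbie and Relb were higher than at peak as well. Of 42 NF-kB subunits, regulators and targets, 7 rose and none fell, where 0.629% of all genes rose. This list was written after values had been seen, so its count is a description and not a test of the pathway. With an unadjusted p under 0.05, 12 members were higher and 3 lower. The authors' q-value was under 0.05 for 7 that were higher and 1 that was lower. The list median was 0.10. The rises were thus in a few members: the subunit genes Nfkb1 (0.03 ± 0.10) and Rela (0.12 ± 0.13) were not called. Gadd45b (ENSMUSG00000015312, chromosome 10, 80930073 to 80932204, plus strand), a stress protein gene switched on by NF-kB, was at 9.0, 9.35 and 12.9 CPM in no disease nerve, 12.5, 16.8 and 15.8 CPM at peak and 35.3, 40.2 and 40.5 CPM at recovery. The recovery libraries lay above all 6 others, with a change of 1.89 ± 0.16, adjusted p = 0.00237 from no disease and of 1.36 ± 0.16, adjusted p = 0.000652 from peak. Gadd45b was called against no disease in all 6 fits with 1 library left out.

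Nfkbie (ENSMUSG00000023947, chromosome 17, 45555703 to 45563169, plus strand), which encodes the inhibitor IkB epsilon, was at 4.39, 4.12 and 8.38 CPM in no disease nerve, 9.4, 11.7 and 9.33 CPM at peak and 19.4, 19.5 and 23.4 CPM at recovery (1.87 ± 0.25, adjusted p = 0.0142 against no disease, 1.04 ± 0.23, adjusted p = 0.0149 against peak). Relb (ENSMUSG00000002983, chromosome 7, 19606217 to 19629438, minus strand), the Rel protein of the alternative pathway, was at 9.92, 11.9 and 14.4 CPM in no disease nerve, 12.1, 13.3 and 15.9 CPM at peak and 28.1, 28.6 and 30.6 CPM at recovery (1.27 ± 0.15, adjusted p = 0.00734 and 1.08 ± 0.15, adjusted p = 0.00156). For both genes the lowest recovery library was above the highest library of the other stages. Map3k14, the kinase that starts the alternative pathway, was at 11.3, 11.6 and 9.28 CPM with no disease and 20.7, 19.3 and 19.9 CPM at recovery (0.90 ± 0.14, adjusted p = 0.0224). Tnfaip3, whose product A20 is a feedback inhibitor of NF-kB, was at 18.8, 25.1 and 26.7 CPM with no disease and 39.95, 36.7 and 41.3 CPM at recovery (0.74 ± 0.13, adjusted p = 0.0319). Birc3, an inhibitor of cell death in the same pathway, was at 35, 27.2 and 34.5 CPM with no disease and 45.2, 53.3 and 52.8 CPM at recovery (0.64 ± 0.12, adjusted p = 0.0461). These last 3 genes moved less than Gadd45b, Nfkbie and Relb, again with no overlap between no disease and recovery. With 1 library left out, Relb was called in 3 of 6 fits, Nfkbie in 2, Map3k14 and Tnfaip3 in 1 each and Birc3 in none, with adjusted p up to 0.19. Birc3 was not called with limma-voom (adjusted p = 0.0666) or in all 18 libraries (adjusted p = 0.0685). The exons of Map3k14 overlap those of 1700028N14Rik.

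The interferon-responsive genes Cxcl10 and Irf1 rose, while most of their class was not called. Of 61 interferon-stimulated genes these 2 rose and none fell, where 0.629% of all genes rose. By sign 52 were higher and 9 lower. With an unadjusted p under 0.05, 10 were higher and 0 lower, against 6.92% and 6.35% of all genes. The authors' q-value was under 0.05 for 9, all higher, against 1.83% of all genes. The list median was 0.29 and turned to -0.03 without recovery replicate 3. Cxcl10 (ENSMUSG00000034855, chromosome 5, 92346638 to 92348889, minus strand), a chemokine that attracts T cells, was at 0.798, 0.367 and 0.838 CPM with no disease, 14.4, 14.5 and 28.5 CPM at recovery and 15.1, 12.8 and 12.9 CPM at peak. Recovery replicate 3 was the highest, recovery replicates 1 and 2 were in the range of peak, and no disease lay far below both (4.77 ± 0.36, adjusted p = 0.00113 for recovery, 4.27 ± 0.36 for peak). Irf1 (ENSMUSG00000018899, chromosome 11, 53770014 to 53778374, plus strand), a transcription factor of the interferon response, was at 36.8, 38.1 and 41.2 CPM in no disease nerve, 41.9, 47 and 49.8 CPM at peak and 87.3, 81.8 and 123 CPM at recovery (1.33 ± 0.15, adjusted p = 0.00622). Both were called in all 6 fits with 1 library left out. The exons of Cxcl10 overlap those of Art3, and those of Irf1 overlap Gm17334, so reads of these neighbours may be included.

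Recovery replicate 3 set the level of much of this class. Cxcl9, a chemokine induced by interferon gamma, was at 1.77, 0.733 and 2.26 CPM with no disease and 3.54, 0.985 and 22.6 CPM at recovery (2.48 ± 1.00, adjusted p = 0.317). Irf7 was at 10.03, 10.2 and 14.1 CPM with no disease and 10.8, 11.9 and 29.6 CPM at recovery (0.62 ± 0.48, adjusted p = 0.656). In both genes recovery replicates 1 and 2 were within or little above the range of no disease and replicate 3 was far above. The summed level of the list was 1640.5 to 2100.1 CPM with no disease and 1867 to 3315 CPM at recovery. Cxcl11, a chemokine gene annotated as a polymorphic pseudogene, was even across recovery libraries, at 9.54, 7.22 and 7.27 CPM against 3.19, 4.31 and 3.74 CPM with no disease (1.10 ± 0.18, adjusted p = 0.029). Its call was lost in each of the 6 fits with 1 library left out, with adjusted p up to 0.104.

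The windows before the start sites of 4 of these genes are shown because they hold letters of interferon or NF-kB motifs. Gadd45b, Nfkbie and Map3k14 held no match in their promoters, and the promoters of Relb and Cxcl11 were not analysed here. They come from RefSeq promoters on GRCm38.p6 and are written 5′ to 3′ on the strand of the gene, and capitals mark matches on either strand to 3 patterns. The interferon-stimulated response element was searched as GAAA, any 2 bases and GAAA, the gamma-activated site as TTC, any 3 bases and GAA, and the NF-kB site as GGGA, any 4 bases and CC. The window of Cxcl10 is chr5:92348971-92349114 (minus strand), that of Irf1 is chr11:53769912-53770013 (plus strand), that of Tnfaip3 is chr10:19015514-19015547 (minus strand) and that of Birc3 is chr9:7873206-7873239 (minus strand).
Cxcl10: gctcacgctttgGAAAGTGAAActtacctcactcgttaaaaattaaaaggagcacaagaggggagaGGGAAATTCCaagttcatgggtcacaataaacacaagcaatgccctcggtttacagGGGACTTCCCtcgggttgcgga
Irf1: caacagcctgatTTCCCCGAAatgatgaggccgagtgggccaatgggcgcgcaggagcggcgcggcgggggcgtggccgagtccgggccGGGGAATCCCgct
Tnfaip3: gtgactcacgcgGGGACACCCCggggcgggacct
Birc3: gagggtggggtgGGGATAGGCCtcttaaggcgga

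Such letters are common. The interferon-stimulated response element stood in the promoter of 3.99% of 27025 genes, in 8 of 82 matched genes that rose (9.76%) and in 2 of 42 that fell (4.76%). The NF-kB site stood in 22.9% of genes, in 24 of those that rose (29.3%) and 14 of those that fell (33.3%), and the gamma-activated site in 9.55%, 7.32% and 14.3%. Cxcl10 holds the first pattern and the NF-kB site, and Irf1 holds the gamma-activated and NF-kB sites. A match is a description of the letters in the window, and binding was not measured.

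Further genes with their highest level at recovery were chosen after their values were seen. Maff, a small bZIP transcription factor, was at 5.36, 6.97 and 9.02 CPM in no disease nerve, 8.21, 9.75 and 10.3 CPM at peak and 19.5, 25.2 and 22.6 CPM at recovery (1.66 ± 0.19, adjusted p = 0.00702). It was called in 4 of 6 fits with 1 library left out. Klf10, a zinc finger factor induced by TGF-beta, was at 56.3, 50.2 and 48.6 CPM in no disease nerve, 52.3, 48.1 and 47.9 CPM at peak and 84.5, 75.2 and 71.1 CPM at recovery (0.57 ± 0.09, adjusted p = 0.029). Alpk1, a kinase that senses bacterial sugars, was at 30.6, 31.4 and 32.7 CPM in no disease nerve, 31.4, 36.9 and 34.6 CPM at peak and 45.4, 47.3 and 50.1 CPM at recovery (0.59 ± 0.09, adjusted p = 0.0178). Klf10 and Alpk1 showed close replicates and small steps, with recovery above both other stages and each called in 1 of those 6 fits. Icam1, an adhesion molecule and NF-kB target, was at 24.7, 37.9 and 45.9 CPM with no disease and 52.8, 48.9 and 53.8 CPM at recovery, where recovery was above but near no disease replicate 3 (0.52 ± 0.18, adjusted p = 0.238).

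No T cell gene was called, and most were low, but nearly all those tested were higher by sign at recovery. Of 38 genes of T and NK cells, 23 were abundant enough to test, and none of the 23 was called by edgeR, with 13 higher and 0 lower when an unadjusted p under 0.05 is used and 6 higher at q under 0.05 in the authors' deposited table. Over all genes 6.92% were higher by an unadjusted p. By sign 22 of the 23 were higher, and the median was 1.29 (1.04 to 1.65 with 1 library left out). The summed level of the 38 was 11.5 to 20.9 CPM with no disease, 33.2 to 56.1 CPM at recovery and 39.6 to 73.8 CPM at peak, so that no disease did not overlap the others. Cd4 was at 2.51, 0.550 and 0.709 CPM with no disease and 3.71, 5.04 and 7.36 CPM at recovery (2.01 ± 0.48, adjusted p = 0.0963). Ccl5, a chemokine of T cells, was at 0.171, 0 and 0.387 CPM with no disease and 1.74, 1.37 and 1.94 CPM at recovery (3.03 ± 0.64, adjusted p = 0.0632). In both the groups did not overlap, which was so for 11.6% of all genes with recovery above. Cd3e, a defining T cell receptor subunit that was too low to test, was at 0.513, 0.275 and 0.129 CPM with no disease, 0.327, 0.493 and 0.677 CPM at recovery and 0.855, 0.114 and 0.167 CPM at peak, so that the groups overlapped. Of the 15 members too low to test, each recovery library was above each no disease library in 5 and the groups overlapped in 10. The 5 were Cd5 (3 counts over the no disease libraries and 16 over recovery), Cd27 (1 and 16), Eomes (5 and 28), Tbx21 (2 and 32) and Gzmk (0 and 10). Of 26 genes of antigen presentation, only Ctss was called. The class II gene H2-Ab1 was at 132, 87.4 and 79.3 CPM with no disease and 105, 105 and 158 CPM at recovery, highest in recovery replicate 3 (0.30 ± 0.22, adjusted p = 0.628). None of 6 tested B and plasma cell genes was called by edgeR (0 at unadjusted p under 0.05 and 0 in the authors' deposited table). The B cell gene Fcrl1 was at 0.171, 0.183 and 0.0644 CPM with no disease and 0.709, 1.09 and 1.17 CPM at recovery (2.81 ± 0.49, adjusted p = 0.0319). Spib, a factor of B cells, was at 0.285, 0 and 0.0644 CPM with no disease and 1.69, 1.48 and 2.12 CPM at recovery (3.66 ± 0.65, adjusted p = 0.0345). Both rose at low levels and were called in 0 and 1 of 6 fits with 1 library left out. Fcrl1 was not called with limma-voom (adjusted p = 0.109) or in all 18 libraries (adjusted p = 0.0568).

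Btc and Runx2 were the repair Schwann cell genes that rose, and no gene of the myelin or Schwann lineage lists was called. Of 22 repair Schwann cell genes tested, these 2 rose and none fell, where 0.629% of all genes rose. As many as 10 were higher and 1 was lower with an unadjusted p under 0.05, against 6.92% and 6.35% of all genes. The authors' q-value was under 0.05 for 6, all higher, against 1.83% of all genes. Signs were higher for 16 and lower for 6, with a median of 0.54 (0.41 to 0.59 with 1 library left out). The summed level of the list did not overlap, at 342.2 to 385.1 CPM with no disease and 474.5 to 483.2 CPM at recovery. Btc (ENSMUSG00000082361, chromosome 5, 91357261 to 91402994, minus strand), an EGF-family ligand, was at 5.13, 2.11 and 2.51 CPM with no disease, 15.9, 17.1 and 17.1 CPM at recovery and 37.1, 41.1 and 37.1 CPM at peak (2.32 ± 0.25, adjusted p = 0.00604). Its recovery libraries agreed closely and lay between the other stages, and it was called in all 6 fits with 1 library left out. Runx2, a transcription factor known from bone, was at 3.19, 2.84 and 4.12 CPM with no disease and 9.97, 8.15 and 6.5 CPM at recovery (1.27 ± 0.21, adjusted p = 0.029). Its call was lost in each of those fits (adjusted p up to 0.118) and with limma-voom (adjusted p = 0.0667). The low affinity neurotrophin receptor Ngfr was at 39.6, 36.7 and 34.2 CPM with no disease and 65.7, 62.3 and 79.9 CPM at recovery with no overlap, and missed the threshold (0.91 ± 0.20, adjusted p = 0.0703), as did the neurotrophic factor Gdnf (2.10 ± 0.47, adjusted p = 0.0759).

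Sox4, a transcription factor of immature Schwann cells, was at 13.4, 9.44 and 9.28 CPM with no disease, 25, 23.7 and 23.9 CPM at recovery and 65.1, 85.8 and 65.9 CPM at peak (1.16 ± 0.16, adjusted p = 0.0163). Apod (ENSMUSG00000022548, chromosome 16, 31296192 to 31314808, minus strand), the lipid carrier apolipoprotein D, was at 2749, 2693 and 2746 CPM with no disease, 4762, 6312 and 5800.3 CPM at recovery and 11947, 16194 and 11123 CPM at peak (1.04 ± 0.16, adjusted p = 0.0263). For both genes recovery fell between no disease and peak with no overlap of stages. Atf3, a stress transcription factor of injured neurons and Schwann cells, was at 18, 12.7 and 17.4 CPM with no disease and 31.2, 30.1 and 36 CPM at recovery (1.01 ± 0.19, adjusted p = 0.0409). The DNA damage gene Gadd45a was at 8.21, 8.71 and 8.31 CPM with no disease and 16.7, 17.3 and 12 CPM at recovery (0.86 ± 0.15, adjusted p = 0.0341). They were the 2 called members of 12 tested neuronal injury genes, whose median was 0.09. Sox4, Apod and Gadd45a were each called in 1 of the 6 fits with 1 library left out and Atf3 in none, with adjusted p up to 0.17. Apod and Gadd45a were not called in all 18 libraries (adjusted p = 0.0518 and 0.0518), nor Atf3 and Gadd45a with limma-voom (adjusted p = 0.086 and 0.0833). The exons of Sox4 overlap Gm26735 and those of Gadd45a overlap E230016M11Rik.

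Further genes that rose, among them the more abundant ones, did so by smaller steps. They were gathered from the calls and form no list tested here. Itgb8, an integrin subunit that activates TGF-beta, was at 410.3, 524 and 538 CPM with no disease and 799, 938 and 873 CPM at recovery (0.83 ± 0.15, adjusted p = 0.0345). Col28a1, a collagen of peripheral nerve, was at 111, 159 and 137 CPM with no disease and 219, 248 and 237 CPM at recovery (0.79 ± 0.14, adjusted p = 0.0319). Gjc3, the glial gap junction gene, was at 132, 152 and 140.0 CPM with no disease and 203, 221 and 200.5 CPM at recovery (0.56 ± 0.10, adjusted p = 0.0393). The groups did not overlap in any of the 3. Serinc5 (0.81 ± 0.11), the adhesion molecule Cadm1 (0.74 ± 0.12), the kinase Tnik (0.75 ± 0.08), Csmd1 (0.63 ± 0.09), Dock10 (0.49 ± 0.07), Plekha1 (0.46 ± 0.08) and the potassium channel Kcna6 (0.79 ± 0.13) also rose. Tnik was called in all 6 fits with 1 library left out, Csmd1 in 2, Serinc5, Cadm1, Dock10, Kcna6 and Col28a1 in 1 each, and Itgb8, Gjc3 and Plekha1 in none, with adjusted p up to 0.172. Gjc3 was not called in all 18 libraries (adjusted p = 0.0882).

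Of 25 myelin genes none was called by edgeR, with 2 higher and 1 lower when an unadjusted p under 0.05 is used and 2 and 1 at q under 0.05 in the authors' deposited table. Those shares, 2 and 1 of 25, are near the 6.92% and 6.35% of all genes at that p. Pmp22, a membrane protein of compact myelin, was at 0.03 ± 0.33, adjusted p = 0.985, and Prx at 0.18 ± 0.25, adjusted p = 0.835. Both were low in no disease replicate 1, and without that library they were at -0.24 and -0.06. Mbp, the basic protein that compacts myelin, was at 5345, 8040.3 and 7549.8 CPM with no disease and 6203, 6916 and 6353 CPM at recovery, with overlapping groups (-0.10 ± 0.16, adjusted p = 0.85). The list median of 0.13 turned to -0.04 without no disease replicate 1. None of 24 Schwann lineage genes was called by edgeR, with 6 higher and 1 lower when an unadjusted p under 0.05 is used and 2 and 1 in the authors' deposited table. Sox10, the factor that defines the lineage, was at 58.1, 89.1 and 114 CPM with no disease and 109, 94 and 105 CPM at recovery (0.24 ± 0.25, adjusted p = 0.751). The injury factor Jun was at 46, 45.8 and 42.9 CPM with no disease, 41.4, 34.6 and 42.8 CPM at recovery and 61.4, 71 and 75 CPM at peak, so that recovery did not exceed no disease (-0.18 ± 0.10, adjusted p = 0.516).

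**Figure D3:**
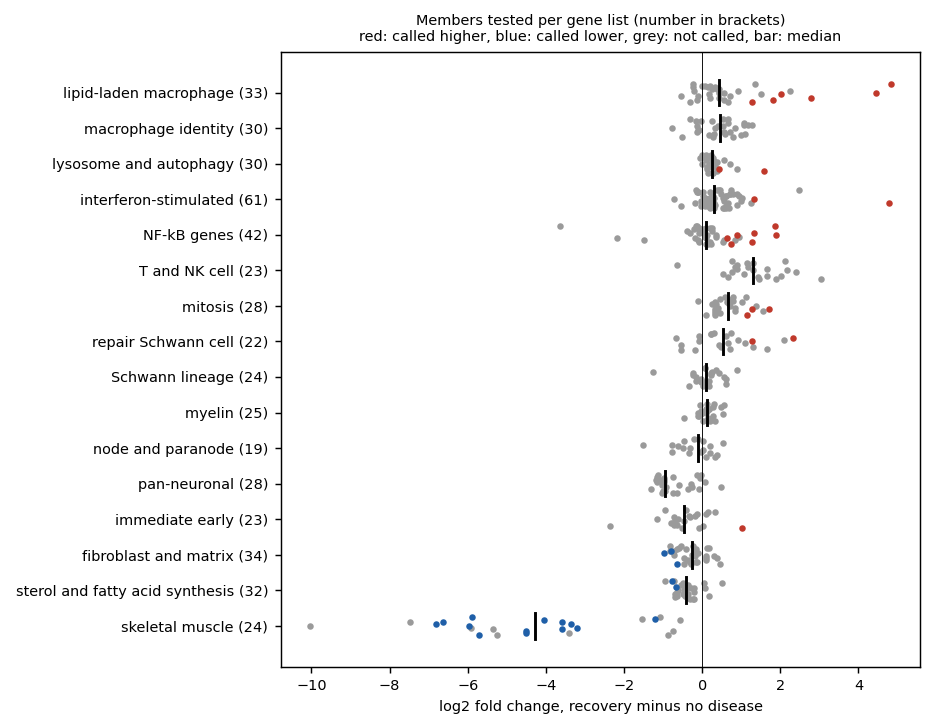
Each row is a gene list with the number of its members tested, each point is 1 member at its log2 fold change from no disease to recovery (x axis), and the black bar is the median of the list. Red points are called higher and blue called lower; the muscle list lies furthest to the left, at a median of -4.27, and the myelin list is centred near 0 with no called member.

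Top2a, Aurkb and Prc1 were the mitosis genes called above no disease, while nearly all others were higher by sign. Of 28 mitosis genes these 3 were called higher and none lower, where 0.629% of all genes rose. By sign 27 were higher and 1 lower. With an unadjusted p under 0.05, 14 were higher and 0 lower, against 6.92% and 6.35% of all genes. The authors' q-value was under 0.05 for 9, all higher, against 1.83% of all genes. The list median was 0.66 (0.59 to 0.73 with 1 library left out), against 3.11 at peak. Top2a (ENSMUSG00000020914, chromosome 11, 98992943 to 99024189, minus strand), the topoisomerase of dividing cells, was at 7.64, 8.34 and 5.54 CPM with no disease, 17.8, 16.5 and 17.7 CPM at recovery and 130.2, 96.9 and 77.2 CPM at peak (1.28 ± 0.21, adjusted p = 0.029). Aurkb, a kinase of chromosome segregation, was at 0.627, 0.183 and 0.451 CPM with no disease and 1.47, 1.37 and 1.58 CPM at recovery (1.72 ± 0.33, adjusted p = 0.0455). Prc1, which bundles the spindle midzone, was at 3.7, 4.12 and 2.58 CPM with no disease and 6.0, 7.88 and 8.94 CPM at recovery (1.15 ± 0.22, adjusted p = 0.0461). In all 3 the recovery libraries lay above no disease and far below peak. Mki67, the nuclear antigen of cycling cells, was at 12.8, 8.62 and 8.89 CPM with no disease and 18.3, 16.2 and 15.8 CPM at recovery and was not called (0.72 ± 0.19, adjusted p = 0.13). Outside the list the repair gene Brca1 (1.01 ± 0.19, adjusted p = 0.0446) and the cytokinesis gene Iqgap3 (1.55 ± 0.28, adjusted p = 0.0347) rose. Cdkn2a, which encodes cell cycle inhibitors, was at 2.34, 1.56 and 2.26 CPM with no disease and 5.5, 5.31 and 6.19 CPM at recovery (1.45 ± 0.24, adjusted p = 0.03). None of 26 DNA replication genes was called by edgeR, with 5 higher and 0 lower when an unadjusted p under 0.05 is used and 0 at q under 0.05 in the authors' deposited table. Top2a, Aurkb and Cdkn2a were each called in 1 of the 6 fits with 1 library left out, and Prc1, Brca1 and Iqgap3 in none (adjusted p up to 0.181). With limma-voom none of these 6 was called (adjusted p = 0.066 to 0.153), nor were Top2a and Aurkb in all 18 libraries (adjusted p = 0.0841 and 0.0686). The exons of Prc1 overlap those of Rccd1.

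Among called genes with a mean of at least 5 CPM in either group, the largest rise was that of Gm11639 (ENSMUSG00000040838, chromosome 11, 104685707 to 105117394, plus strand), a predicted protein-coding gene. It was at 0.741, 0.275 and 0.580 CPM in no disease nerve, 1.71, 2.91 and 2.08 CPM at peak and 17.4, 17.8 and 21.2 CPM at recovery. Recovery lay far above both other stages with little spread, at 5.05 ± 0.30, adjusted p = 0.00018 from no disease and 3.08 ± 0.24, adjusted p = 0.000125 from peak, and the call held in all 6 fits with 1 library left out. Its exons overlap those of Efcab3. Col22a1 (ENSMUSG00000079022, chromosome 15, 71795795 to 72034227, minus strand), a collagen of tissue junctions, was at 0.0570, 0.458 and 0.193 CPM in no disease nerve, 1.19, 1.25 and 1.79 CPM at peak and 4.52, 4.38 and 4.97 CPM at recovery (4.42 ± 0.45, adjusted p = 0.00525), also called in all 6. The calpain gene Capn11 was at 0, 0.275 and 0.129 CPM with no disease and 1.53, 0.930 and 2.57 CPM at recovery. Heatr9 was at 0, 0.0917 and 0.129 CPM with no disease and 0.981, 1.15 and 0.768 CPM at recovery. Both were low but above the other stages at recovery. Their fitted rises, 3.78 ± 0.70 and 3.68 ± 0.65, rest on few counts and were lost in each of those 6 fits, with adjusted p up to 0.159 and 0.15.

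Col1a1, Bgn and Col6a2 were lower at recovery than with no disease, while the collagen genes Col28a1 and Col22a1, outside the list used here, were higher, as given above. Of 34 fibroblast and matrix genes none rose and these 3 fell, where 0.393% of all genes fell, with 15 lower and 0 higher by an unadjusted p under 0.05 and a median of -0.27 (-0.35 to -0.22 with 1 library left out). Col1a1 (ENSMUSG00000001506, chromosome 11, 94936224 to 94953042, plus strand), a chain of type I collagen, was at 1729, 1535 and 1326 CPM with no disease, 848, 810.2 and 689 CPM at recovery and 4301, 4183 and 3858 CPM at peak. Each recovery library was below each no disease library, and each peak library above them (-0.97 ± 0.13, adjusted p = 0.0135 for recovery, 1.43 ± 0.13, adjusted p = 7.04e-05 for peak). Bgn, the small proteoglycan biglycan, was at 275, 249.7 and 219 CPM with no disease and 154, 162 and 158 CPM at recovery (-0.65 ± 0.11, adjusted p = 0.0336). Col6a2, a chain of the microfibrillar type VI collagen, was at 364, 303 and 262 CPM with no disease and 205, 163 and 169.6 CPM at recovery (-0.79 ± 0.16, adjusted p = 0.0492). Bgn and Col6a2 also fell below the range of no disease in each recovery library. Col3a1, a fibrillar collagen, was at 5926, 5668 and 4818 CPM with no disease and 4078, 3847 and 2952 CPM at recovery and was not called (-0.59 ± 0.16, adjusted p = 0.135). Col1a1 was called in 3 of the 6 fits with 1 library left out, with adjusted p up to 0.0748, and Bgn and Col6a2 in none (up to 0.141 and 0.222). None of the 3 was called in all 18 libraries (adjusted p = 0.139, 0.388 and 0.188), and Col6a2 was lost with limma-voom as well (adjusted p = 0.0609).

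Further genes that fell were gathered from the calls and form no list tested here. The basement membrane chain Col4a4 was at 52.9, 45.5 and 43.8 CPM with no disease and 31.3, 29.8 and 30.5 CPM at recovery (-0.64 ± 0.12, adjusted p = 0.0389). Col4a5, of the same family, was at 83.3, 76.3 and 68.2 CPM with no disease and 49.7, 53.8 and 44.8 CPM at recovery (-0.62 ± 0.12, adjusted p = 0.0472). Creb3l1, a transcription factor that drives collagen secretion, was at 11.6, 9.72 and 9.93 CPM with no disease and 4.85, 3.17 and 4.16 CPM at recovery (-1.36 ± 0.19, adjusted p = 0.0163). In all 3 each recovery library was below each no disease library. Igf2 (ENSMUSG00000048583, chromosome 7, 142650766 to 142666816, minus strand), an insulin-like growth factor, was at 31.2, 30.4 and 31.3 CPM with no disease, 14.4, 12.9 and 11.8 CPM at recovery and 13.3, 19.4 and 15 CPM at peak (-1.25 ± 0.14, adjusted p = 0.00622). The 3 no disease libraries of Igf2 were nearly equal and lay above all others. C7, a component of the complement pore made by fibroblasts, was at 179, 173 and 174 CPM with no disease and 58.9, 80.8 and 62.4 CPM at recovery (-1.38 ± 0.26, adjusted p = 0.0455). The interleukin-1 receptor Il1r1 was at 72.4, 84.2 and 106 CPM with no disease and 47.6, 41.7 and 46 CPM at recovery (-0.96 ± 0.14, adjusted p = 0.0177). Medag (-0.84 ± 0.12), Clec11a (-0.76 ± 0.14), the glypican Gpc6 (-0.74 ± 0.12), the matrix protein Npnt (-0.71 ± 0.12) and the chemokine Cxcl14 (-0.90 ± 0.18) fell too. Igf2 was called in 4 of the 6 fits with 1 library left out, Creb3l1, Il1r1 and Medag in 2 each, Gpc6 and Cxcl14 in 1 each, and Col4a4, Col4a5, C7, Clec11a and Npnt in none, with adjusted p up to 0.204. In all 18 libraries Igf2 (adjusted p = 0.291), Npnt (0.203), Col4a5 (0.094), Clec11a (0.0625) and Gpc6 (0.052) were not called. With limma-voom Cxcl14 (adjusted p = 0.0833), Col4a5 (0.066) and Col4a4 (0.0556) were not called.

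Itih2 (ENSMUSG00000037254, chromosome 2, 10094593 to 10131396, minus strand), which encodes a heavy chain that binds hyaluronan, was at 149, 162 and 155 CPM with no disease, 104, 91.7 and 93.1 CPM at recovery and 40.3, 41.9 and 45.5 CPM at peak (-0.69 ± 0.08, adjusted p = 0.00712). Sfrp1 (ENSMUSG00000031548, chromosome 8, 23411502 to 23449632, plus strand), a secreted inhibitor of Wnt signalling, was at 60.2, 61.6 and 56.8 CPM with no disease, 34.3, 38.3 and 37.2 CPM at recovery and 25, 22.9 and 26 CPM at peak (-0.70 ± 0.08, adjusted p = 0.00712). Both fell most at peak and stood between peak and no disease at recovery. Sfrp1 was the only one of 28 Wnt pathway genes called by edgeR and was called in 5 of the 6 fits with 1 library left out, while Itih2 was called in 3. The Wnt5a receptor Ror1 (-0.74 ± 0.13, called in 1 of those fits) fell as well. Itih2 was not called in all 18 libraries (adjusted p = 0.472), nor Ror1 with limma-voom (adjusted p = 0.0516).

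**Figure D4:**
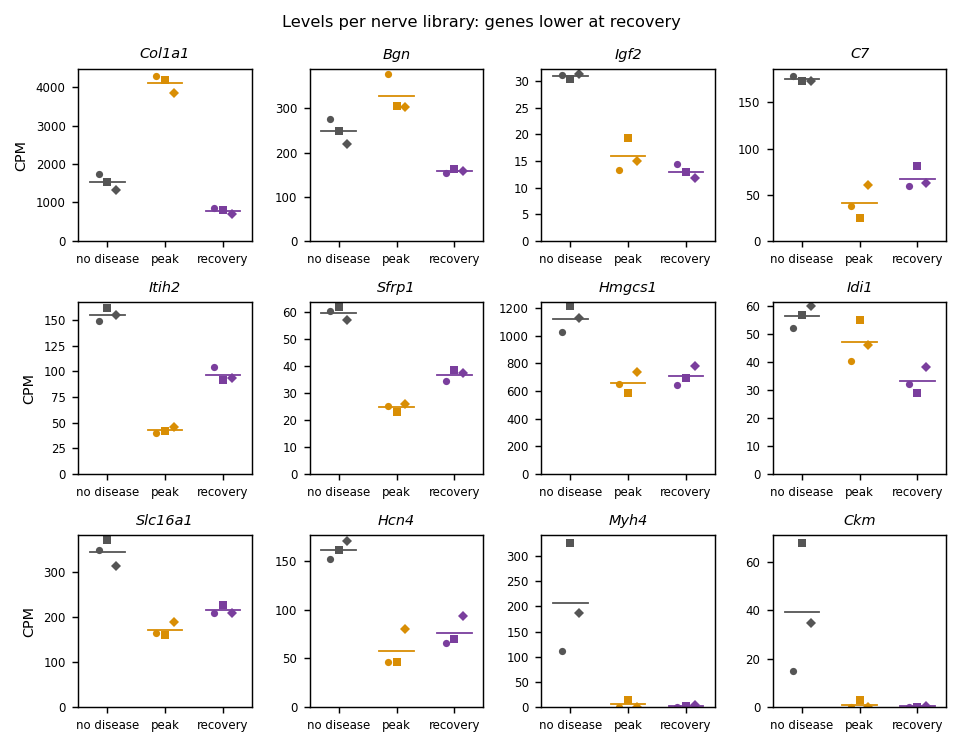
CPM on a linear axis from 0 for 12 genes that fell, with 1 panel per gene and 3 libraries per stage (circle, square and diamond for replicates 1, 2 and 3; the line is the group mean). Col1a1 and Bgn were highest at peak and lowest at recovery, Itih2 and Sfrp1 were lowest at peak, and Myh4 and Ckm were highest in no disease replicate 2.

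Hmgcs1 and Idi1 were the genes of cholesterol synthesis called lower. Of 32 genes of sterol and fatty acid synthesis none rose and these 2 fell, where 0.393% of all genes fell. By sign 28 were lower and 4 higher. With an unadjusted p under 0.05, 13 were lower and 0 higher, against 6.35% and 6.92% of all genes. The authors' q-value was under 0.05 for 11 lower and 1 higher, against 2.01% and 1.83% of all genes. The list median was -0.42 (-0.50 to -0.37 with 1 library left out). Hmgcs1 (ENSMUSG00000093930, chromosome 13, 119690379 to 119708260, plus strand), an early enzyme of the pathway, was at 1031, 1214 and 1130.0 CPM with no disease, 645, 691 and 780.4 CPM at recovery and 649, 586 and 738 CPM at peak (-0.67 ± 0.12, adjusted p = 0.0319). Idi1, which makes the activated isoprene unit, was at 52, 56.6 and 59.8 CPM with no disease, 32, 28.9 and 38 CPM at recovery and 40.4, 55 and 45.9 CPM at peak (-0.76 ± 0.13, adjusted p = 0.0336). For Hmgcs1 each no disease library was above all others. For Idi1 the ranges of no disease and peak overlapped, and each recovery library lay below both. Sc5d, a late enzyme of the pathway, was at 250.5, 303 and 279 CPM with no disease and 160.4, 160.5 and 189.6 CPM at recovery and was not called (-0.70 ± 0.17, adjusted p = 0.107). Slc16a1, the lactate transporter MCT1 of Schwann and perineurial cells, was at 348, 371 and 314 CPM with no disease and 208, 226 and 209.8 CPM at recovery (-0.68 ± 0.09, adjusted p = 0.0163). Hmgcs1 and Idi1 were each called in 1 of the 6 fits with 1 library left out (adjusted p up to 0.154 and 0.155) and Slc16a1 in 2.

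Ion channel and synaptic genes among the falls included Hcn4, a pacemaker channel, at 152, 161 and 170.5 CPM with no disease and 65.7, 70.2 and 93.2 CPM at recovery (-1.08 ± 0.21, adjusted p = 0.0492). Cacna1c, a calcium channel subunit, was at 28.5, 31.5 and 29.2 CPM with no disease and 21.6, 19.4 and 17.8 CPM at recovery (-0.60 ± 0.10, adjusted p = 0.029). Gabra3, a GABA receptor subunit, was at 55.9, 49.6 and 44.1 CPM with no disease and 31.7, 35.6 and 30.4 CPM at recovery (-0.61 ± 0.11, adjusted p = 0.0347). Nrxn2, a presynaptic adhesion gene whose exons overlap Slc22a12, was at 21.3, 19.1 and 16.3 CPM with no disease and 7.79, 9.58 and 7.13 CPM at recovery (-1.21 ± 0.20, adjusted p = 0.029). None of the 4 overlapped between groups, as was so for 10.1% of all genes with recovery below. Hcn4, Gabra3 and Nrxn2 were called in none of the 6 fits with 1 library left out and Cacna1c in 1 (adjusted p up to 0.221). Cacna1c was not called in all 18 libraries (adjusted p = 0.113), nor Hcn4 with limma-voom (adjusted p = 0.0539). No pan-neuronal gene of 28 tested was called by edgeR, with 2 lower and 0 higher by an unadjusted p under 0.05 and 0 in the authors' deposited table. The median of that list was -0.94, and it turned to 0.08 without no disease replicate 1. None of 19 genes of the node and paranode was called by edgeR either. By an unadjusted p under 0.05, 1 was higher and 3 were lower, and the authors' deposited table held 0 and 2. Nor was any of 24 endothelial and perineurial genes called, with 0 higher and 3 lower by an unadjusted p under 0.05 and 0 and 2 in the authors' deposited table.

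Immediate early genes gave 1 call, that of Atf3, among 23 tested. By an unadjusted p under 0.05, 1 was higher and 10 were lower, against 6.92% and 6.35% of all genes. The authors' q-value was under 0.05 for 1 higher and 7 lower, against 1.83% and 2.01% of all genes. Fos was at 57, 127 and 139 CPM with no disease and 70.04, 34.4 and 40.9 CPM at recovery (-1.15 ± 0.38, adjusted p = 0.214). Fosb was at 21.4, 42.9 and 57 CPM with no disease and 13.2, 5.64 and 4.92 CPM at recovery (-2.35 ± 0.60, adjusted p = 0.116). Egr1 was at 28.1, 49.6 and 56.3 CPM with no disease and 36.4, 20.9 and 24.2 CPM at recovery (-0.71 ± 0.26, adjusted p = 0.269). All 3 are induced within minutes of stimulation, were highest in no disease replicate 3 and were not called by edgeR. The cytokine Il6, given above, was highest in the same library and was not called at recovery (-3.63 ± 1.14, adjusted p = 0.194).

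The deepest falls were those of skeletal muscle genes. Of 24 tested, 13 were called lower and none higher, where 0.393% of all genes fell. All 24 were lower by sign. An unadjusted p under 0.05 gave 21 lower and 0 higher, against 6.35% and 6.92% of all genes. The authors' q-value was under 0.05 for 21, all lower, against 2.01% of all genes. The list median was -4.27 (-4.64 to -3.47 with 1 library left out). Myh4 (ENSMUSG00000057003, chromosome 11, 67238029 to 67260446, plus strand), a myosin of fast fibres, was at 111, 326 and 186 CPM with no disease, 0.927, 1.26 and 3.79 CPM at recovery and 0.760, 14.6 and 0.0416 CPM at peak (-6.64 ± 1.16, adjusted p = 0.0336). Ckm, the muscle creatine kinase, was at 14.8, 67.5 and 34.8 CPM with no disease, 0.218, 0.164 and 0.587 CPM at recovery and 0, 2.85 and 0.0833 CPM at peak (-6.82 ± 1.11, adjusted p = 0.029). The giant sarcomere gene Neb was at 44.6, 145 and 64.3 CPM with no disease, 8.07, 7.83 and 8.76 CPM at recovery and 14.3, 26.6 and 10.9 CPM at peak (-3.36 ± 0.46, adjusted p = 0.0163). No disease replicate 2 was the highest in each and replicate 1 the lowest of its group, so the no disease libraries differed among themselves, while all lay above recovery. The calcium buffer Pvalb was at 12, 58.9 and 18.9 CPM with no disease and 1.85, 1.26 and 0.858 CPM at recovery (-4.50 ± 0.69, adjusted p = 0.0251). The calcium release channel Ryr1, whose exons overlap Gm26604, was at 14.2, 25.1 and 13 CPM with no disease and 1.15, 1.37 and 2.75 CPM at recovery (-3.28 ± 0.54, adjusted p = 0.029).

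Klhl31 and Myot had 0 counts at recovery. Against a floor of 3 counts over the group, 0.0511 CPM, they were at least 83.4-fold and 62.5-fold lower than their no disease means of 4.26 and 3.19 CPM. With limma-voom Ckm and Pvalb were not called (adjusted p = 0.124 and 0.104), nor were Myh4 and Ryr1 in all 18 libraries (adjusted p = 0.0913 and 0.0644). The muscle list took 0.0745% to 0.186% of counts with no disease, 0.00784% to 0.0107% at recovery and 0.00663% to 0.0278% at peak, and its summed level was 724 to 2337, 75.8 to 100.4 and 64 to 271 CPM. Muscle lies beside the sciatic nerve, and the part of dissection in these values was not tested. Neb and Actn3 were called in 3 of the 6 fits with 1 library left out and Myh4, Ckm, Pvalb, Ryr1, Klhl31 and Myot in 1 each, with adjusted p up to 0.18.

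For scale, the authors' deposited table held 310 genes higher and 343 lower at q under 0.05, and 162 of the 164 genes called here were among them. Gm42418, which collects ribosomal RNA reads, was at 494, 518 and 466 CPM with no disease and 229, 232 and 220.5 CPM at recovery (-1.12 ± 0.20, adjusted p = 0.0357). It was called in none of the 6 fits with 1 library left out.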

How the data were processed

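Whole sciatic nerve RNA was made into libraries with a SMARTER mRNA kit, per the labels' protocols. The submitters' processing notes name STAR 2.6.1a, kallisto 0.44.0, Bowtie2, GRCm38 and mm10. What each tool did, the annotation, the strand setting and any removal of ribosomal RNA were not given in the sources used here. Without the strand setting, reads of genes with overlapping exons cannot be told apart. The deposited values were whole-number read counts for 28684 Ensembl genes in 18 libraries. Their deposited table of comparisons holds a log2 ratio and a q-value for each gene, as its headers say, used here only to count their calls.

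From the counts, the 9 nerve libraries were fitted together in edgeR 4.0.16 (R 4.3.3) with filterByExpr, TMM and the quasi-likelihood F test, and the SE is the log2 fold change divided by the square root of F. On simulated data with 15669 genes this fit recovered 35.8% of 67 genes changed 1.5-fold, 79.1% of 67 changed 2-fold and 100% of 66 changed 4-fold for recovery against no disease, and 3.38% of its calls were unchanged genes. The changed genes were drawn only from those with a mean over 5 CPM. Peak was simulated at the no disease level, and no library was made to stand apart. These rates may therefore not hold for the data, least of all for low genes. Total counts of 13686465 to 20766191 over the 6 libraries compared limit low genes, where 33 of the 164 genes called had means under 5 CPM in both groups. Floors cover counting error only. No pair of libraries of a group agreed within sampling noise.

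Positions come from GENCODE vM21 on GRCm38, which held 28578 of the 28684 IDs, and promoters from RefSeq on GRCm38.p6. Of 153 genes named in the tables behind this text, 18 share exons with another gene. The members and lists were chosen with earlier results of these data known. The rule for named genes took, among genes called with a mean of at least 5 CPM in a group and no overlap, the 14 largest rises, the 14 largest falls and the 6 most abundant each way. It added up to 5 called members per list described, or up to 3 abundant members of lists with none, and a short set of fixed genes; a few genes that it took are not reported here. The NF-kB list and further genes were added after their values were seen: among them Relb, Tnfaip3, Birc3, Map3k14, Maff, Klf10, Alpk1, Sox4, Cadm1, Gjc3, Brca1, Iqgap3, Cdkn2a, Col22a1, Igf2, C7, Creb3l1, the Col4 chains, Hcn4, Il6 and Cxcl9. Alternatives were DESeq2 1.42.0 and its size factors, upper-quartile factors, limma-voom (limma 3.58.1), other filters, other sets of libraries, the replicate number as a block, removal of ribosomal RNA reads and leaving out each library.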

Additional observations from a re-analysis of the deposited data

Results flagged for a closer look

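The changes of 3 genes at recovery and at peak, both against no disease, were opposite in sign, and the difference itself passed edgeR's test of recovery against peak. Both changes use the same no disease libraries. For Col1a1, the type I collagen chain, the change at recovery minus that at peak was -2.39 (recovery -0.97 ± 0.13, peak 1.43 ± 0.13, adjusted p of the difference 2.28e-05). For the chemokine Cxcl14 it was -1.42 (recovery -0.90 ± 0.18, peak 0.52 ± 0.17, adjusted p 0.000905), with 20.9, 30.3 and 29.3 CPM in no disease nerve, 38.8, 32.9 and 43.6 CPM at peak and 16.9, 13.6 and 12.5 CPM at recovery. For biglycan, Bgn, it was -1.06 (recovery -0.65 ± 0.11, peak 0.41 ± 0.11, adjusted p 0.000473), with 378, 305 and 302 CPM at peak.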

How the results depend on the processing

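Of 101 named genes that were called, 10 stayed called in all 6 fits with 1 library left out, and all 101 kept their direction in each alternative that gave them a value. The counts of genes higher and lower moved by more than 1.5 times with no filter on low counts (176 and 140), with DESeq2 (283 and 267) and with limma-voom (55 and 35). They did so as well in all 18 libraries (170 and 145), and for lower genes in the 6 libraries of both groups alone (130, with 135 higher). Of the 101 named calls, 37 ended with limma-voom, 26 in all 18 libraries and 0 with DESeq2. Leaving out 1 library gave 13 to 79 genes higher and 0 to 65 lower. Such fits have fewer samples, and the cause of a lost call was not tested beyond that. The limits are those of 3 libraries per group: genes of few counts, and genes in which 1 library stands apart, are the least certain.

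The replicate numbers were not shown to pair the samples. With the replicate number as a block 68 genes were higher and 63 lower, 103 of them shared with the fit without it, and 26 of the named calls ended. Deviations of same-numbered no disease and recovery libraries correlated at 0.11, 0.07 and 0.14, and those of other numbers at -0.11 to -0.03, so that each of these 6 libraries correlated best with its own number among the libraries of the other group. Peak replicates 1 and 3 also correlated best with their own number in both other groups, and peak replicate 2 did so in neither. Same-numbered pairs with a peak library were at -0.04 to 0.14, and those of other numbers at -0.18 to 0.11.

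Values whose sign turned with 1 library left out belonged to genes that were not called. Without no disease replicate 1 they were Bank1 at 0.06, Ighm at 0.51, Nfkb1 at -0.06, Ntrk3 at 0.07, Plekha4 at -0.05, Pmp22 at -0.24, Prx at -0.06 and Sptan1 at -0.02. Without recovery replicate 3 they were Cldn1 at 0.03 and Ntrk3 at 0.10, without no disease replicate 2 Sncg at 0.06 and without recovery replicate 2 Sptan1 at -0.01. At the other end of these fits Bank1 was at -0.44, Cldn1 at -0.12, Ighm at -1.44, Nfkb1 at 0.11, Ntrk3 at -0.19, Plekha4 at 0.16, Pmp22 at 0.20, Prx at 0.33, Sncg at -0.18 and Sptan1 at 0.09.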
